A study of Mus musculus with 6 samples.

Results

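T cells read an antigen through the T cell receptor and then weigh it through a second set of surface receptors. The transcripts of 10 of these receptors are described here in Th17 cells that carry the N275D substitution in RORγt, the transcription factor that defines the Th17 lineage, and in WT Th17 cells. The 10 genes are *Cd28*, *Icos*, *Ctla4*, *Pdcd1*, *Lag3*, *Havcr2*, *Tigit*, *Btla*, *Cd5* and *Cd69*. They were picked by symbol for their known roles, 10 of 16244 genes in the table, and all 10 were found. CD28 and ICOS are co-stimulatory receptors that strengthen the T cell response. CTLA-4, PD-1 (*Pdcd1*), LAG-3, TIM-3 (*Havcr2*), TIGIT, BTLA and CD5 restrain it and are known as immune checkpoints or negative regulators. CD69 is a C-type lectin that appears early after activation and holds the cell in the tissue by drawing the egress receptor S1P1 into the cell.

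Naive CD4+ T cells labelled as coming from the spleen were taken from WT mice (C57BL/6) and from RORγt N275D knockin mice on a C57BL/6 background, and 3 libraries were made for each genotype. Both genotypes were stimulated with anti-CD3 and anti-CD28 and kept for 3 days under pathogenic Th17 conditions. The series names IL-6, IL-1β and IL-23 as the cytokines, and the study's methods add TGF-β with blocking antibodies to IL-4 and IFN-γ. CD28 was thus engaged by antibody in every culture. The labels call the mutant cells Mut and do not say whether they were homozygous. The knockin allele is present in the germline, so RORγt was mutant throughout T cell development. The methods give an age of 6 to 12 weeks for mice in general, with no separate age for these donors. Whether a library came from 1 mouse or several is not given in the sources used here, so the p-values measure the spread between libraries, which may be technical.

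Each library held between 17659035 and 18510878 reads on genes. The values are normalized read counts, and limma was run on log2(normalized reads + 1) for the 11908 genes whose mean in the 6 libraries reached 10. All 10 receptors passed that minimum, although *Havcr2* did so only through the N275D libraries. The CD4 T cell markers *Cd3d*, *Cd3e*, *Cd3g*, *Cd4* and *Cd247* were present at 1034 normalized reads or more in every library, and the Th17 cytokine *Il17a* at 27166 or more. Among the WT libraries, replicate 3 lay farthest from the mean of the others, by a small margin. Its root mean square log2 distance was 0.23, against 0.22 for replicate 2 and 0.20 for replicate 1. *Icos*, *Btla*, *Lag3*, *Havcr2* and *Cd69* are given with and without it.

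Promoter sequence was at hand for 6 of the 10 genes, *Ctla4*, *Pdcd1*, *Havcr2*, *Tigit*, *Btla* and *Cd5*. The 3 whose transcripts changed most among them are shown from RefSeq (GRCm38.p6), from 250 bases before to 50 bases after an annotated transcript start, 5′ to 3′ in the sense of the gene. Capitals mark the letters AGGTCA, which are a ROR half-site, and ACGTG, which is the core of a hypoxia response element, on either strand, since the study concerns RORγt and HIF-1α.
Pdcd1, chr1:94052504-94052803, minus strand: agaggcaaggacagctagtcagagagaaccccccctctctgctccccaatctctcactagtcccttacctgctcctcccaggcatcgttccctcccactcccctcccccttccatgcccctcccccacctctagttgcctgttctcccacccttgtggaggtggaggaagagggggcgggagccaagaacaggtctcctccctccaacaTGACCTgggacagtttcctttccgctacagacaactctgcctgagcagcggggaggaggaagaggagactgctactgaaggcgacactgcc
Havcr2, chr11:46454681-46454980, plus strand: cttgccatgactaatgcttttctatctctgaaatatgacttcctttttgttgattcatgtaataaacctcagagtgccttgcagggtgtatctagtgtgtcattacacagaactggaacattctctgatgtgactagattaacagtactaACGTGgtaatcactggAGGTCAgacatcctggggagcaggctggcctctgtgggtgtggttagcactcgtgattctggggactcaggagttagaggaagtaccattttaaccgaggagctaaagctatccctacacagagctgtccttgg
Tigit, chr16:43664135-43664434, minus strand: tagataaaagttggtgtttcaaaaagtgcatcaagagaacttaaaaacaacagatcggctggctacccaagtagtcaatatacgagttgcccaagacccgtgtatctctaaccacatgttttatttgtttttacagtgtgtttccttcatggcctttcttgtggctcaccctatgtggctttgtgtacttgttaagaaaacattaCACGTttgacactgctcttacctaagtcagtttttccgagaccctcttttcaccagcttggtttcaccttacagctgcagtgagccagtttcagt
The *Pdcd1* window held 1 ROR half-site and no hypoxia core, the *Havcr2* window 1 of each, and the *Tigit* window 1 hypoxia core. Of 32851 promoter windows of this length, 16.3% held AGGTCA and 19.6% held ACGTG. The *Ctla4* window held 2 hypoxia cores and the *Btla* window 3, 2 of which overlap because the letters CACGTG read the same on both strands. GGAAA, the core that NFAT factors bind, was present 2 times each in the *Pdcd1* and *Tigit* windows and 1 time each in those of *Ctla4* and *Cd5*, where 61.3% of all windows hold it. TGANTCA, the AP-1 site, was found in the *Havcr2* window and in 7.81% of all windows. The starts used for *Tigit*, *Btla* and *Cd5* lie inside the span of the gene, downstream of its outermost start. These matches describe the letters and are not evidence of binding.

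All 10 receptor transcripts differed between the genotypes at an adjusted p under 0.05 by limma, 5 higher and 5 lower in N275D cells. Over all genes tested, 50.9% were called, 24.7% higher and 26.1% lower. For each of the 10 receptors, the 3 libraries of one genotype lay above the 3 of the other, as they did in 57.7% of all genes tested. Both co-stimulatory receptors rose, *Cd28* and *Icos*. Of the 7 inhibitory receptors, *Havcr2*, *Tigit* and *Lag3* rose, and *Pdcd1*, *Cd5*, *Btla* and *Ctla4* fell, as did *Cd69*. The changes were mostly small. The median absolute log2 fold change of the 10 was 0.37 against 0.19 over all genes tested, and 3.59% of all genes tested reached 2-fold. Of the 10, *Havcr2* did so, and with a pseudocount of 10 in place of 1 it did not (log2 fold change 0.99). *Havcr2* is counted among the 5 higher although it passed the minimum mean only through the N275D libraries. In cultures of mixed cells, fewer cells of a type and less RNA per cell cannot be told apart.

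**Figure D1:**
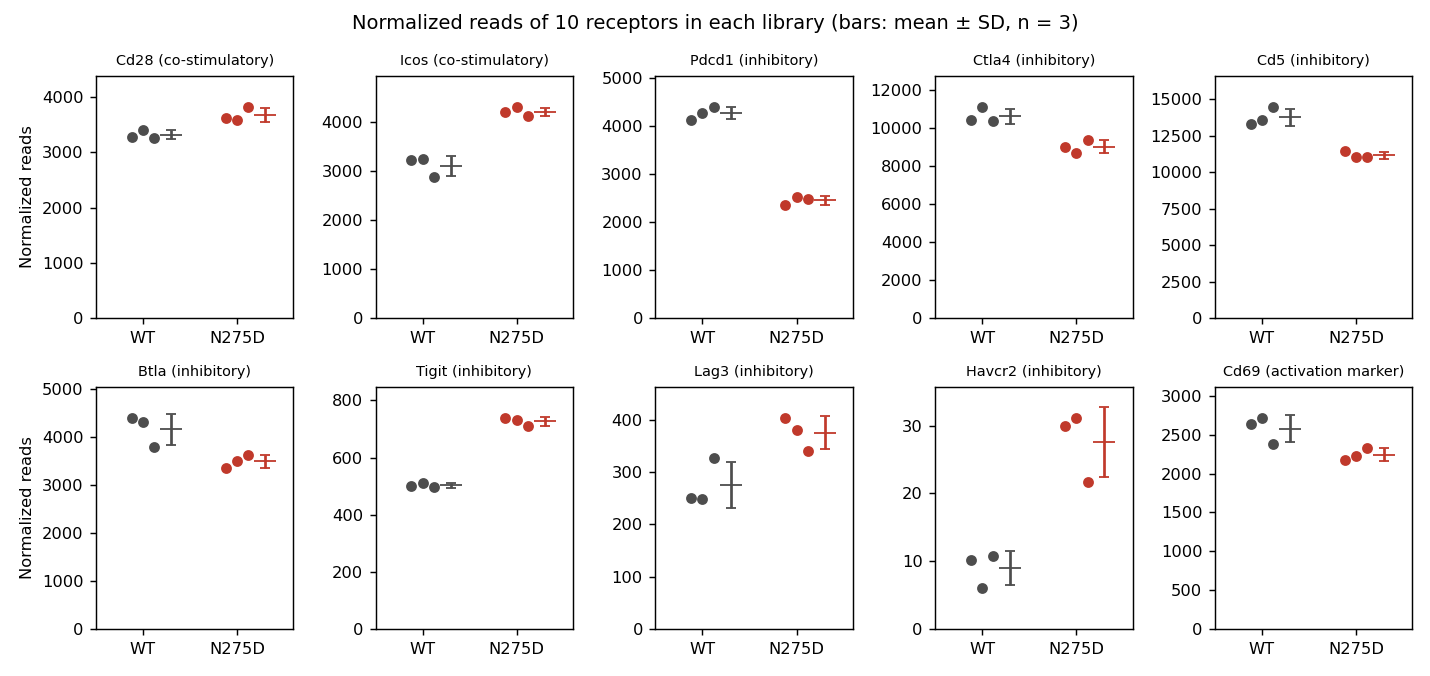
Normalized reads (y axis, linear and starting at 0) of the 10 receptors in each of 3 WT (grey) and 3 N275D (red) libraries, with the mean and SD beside the points. In each panel the genotypes do not overlap, and for *Lag3* the nearest libraries are WT replicate 3 with 327 and N275D replicate 3 with 341 normalized reads.

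*Cd28* (gene number 12487, chr1:60746388-60773359) encodes the main co-stimulatory receptor, which binds CD80 and CD86. Its normalized reads were 3286, 3408 and 3264 in the WT libraries and 3616, 3589 and 3814 in the N275D libraries. The rise was the smallest of the 10 changes, with a log2 fold change of 0.15 (SE, the standard error of the fit, 0.04, adjusted p = 0.00556 from limma), or 10.6% on the linear scale. N275D replicate 3 was the highest library, and without it the log2 fold change was 0.12 (adjusted p = 0.0438 from limma). The absolute change of *Cd28* exceeded that of 40.7% of the genes tested, so it was below the median gene in size.

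*Icos* (gene number 54167, chr1:60960773-61000322) encodes the inducible co-stimulator, a CD28 relative that appears after activation and supports IL-17 and follicular helper responses. It had 3226, 3243 and 2881 normalized reads in WT and 4204, 4306 and 4139 in N275D cells. The N275D libraries lay close together, and WT replicate 3 was the lowest of the 6. The log2 fold change of *Icos* was 0.44 (SE 0.05, 95% confidence interval 0.34 to 0.53, adjusted p = 9.77e-07 from limma), and it was 0.38 without WT replicate 3. Together the normalized reads of *Cd28* and *Icos* summed to between 6145 and 6651 in WT and between 7820 and 7953 in N275D libraries.

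*Ctla4* (gene number 12477, chr1:60909025-60915832) lies in the same cluster, 135.7 kb downstream of *Cd28* and 44.9 kb upstream of *Icos*, and its product competes with CD28 for CD80 and CD86. It had 10408, 11087 and 10381 normalized reads in WT and 9029, 8673 and 9361 in N275D cells. Its change ran opposite to those of both neighbours, with a log2 fold change of -0.24 (SE 0.04, adjusted p = 9.69e-05 from limma). The ratio of *Ctla4* to *Cd28*, each as normalized reads per kb of exon, does not depend on library scaling. It was 7.12, 7.32 and 7.15 in the WT libraries and 5.62, 5.43 and 5.52 in the N275D libraries. The mean ratio went from 7.20 ± 0.10 to 5.52 ± 0.09 (SD, n = 3 each). The genotypes did not overlap in the ratio, which follows from their not overlapping in either gene, in opposite directions. Both genes were chosen with their changes known, so the ratio is given with no test.

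**Figure D2:**
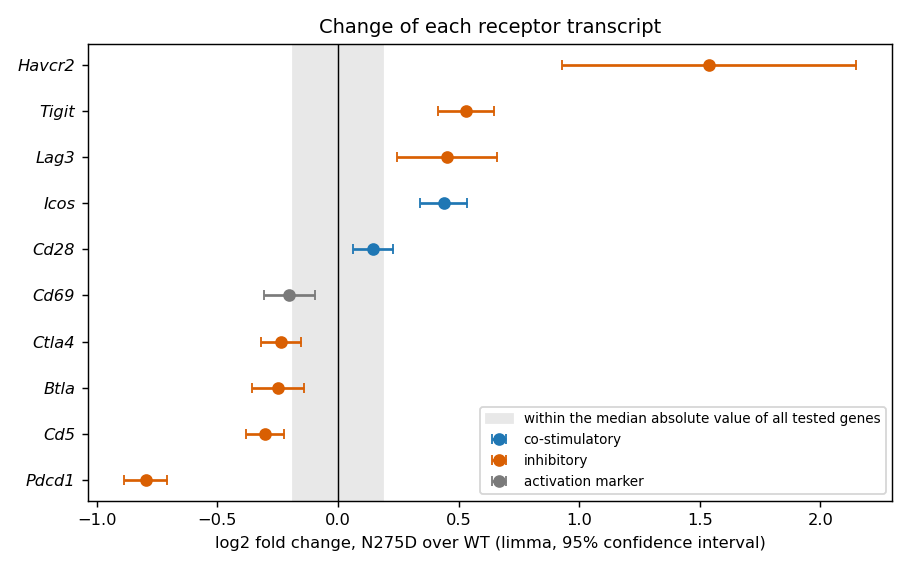
Log2 fold change of each receptor, N275D over WT (x axis), from limma with its 95% confidence interval, coloured by role. Both co-stimulatory receptors lie above 0, the inhibitory receptors lie on both sides from -0.80 for *Pdcd1* to 1.54 for *Havcr2*, and the grey band covers absolute values up to the median of all genes tested, 0.19.

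*Pdcd1* (gene number 18566, chr1:94038305-94052553) encodes PD-1, which recruits the phosphatase SHP-2 to dampen signals of the T cell receptor and CD28. It fell from 4136, 4288 and 4394 normalized reads in WT to 2356, 2536 and 2483 in N275D cells. In log2 terms the change was -0.80 (SE 0.04, 95% confidence interval -0.88 to -0.71, adjusted p = 2.30e-10 from limma), so that *Pdcd1* fell by 42.5%. This was the largest fall of the 10 and exceeded in absolute size 94.3% of the genes tested. The lowest WT library lay 1600 normalized reads above the highest N275D library.

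*Cd5* (gene number 12507, chr19:10718107-10739026) encodes a scavenger receptor family protein whose level on the cell tracks the strength of T cell receptor signalling, which it restrains. It had 13281, 13539 and 14425 normalized reads in WT and 11411, 11015 and 11002 in N275D cells, which is -0.30 on the log2 scale (SE 0.04, adjusted p = 4.95e-06 from limma). *Cd6*, its related neighbour 50.3 kb away, had a log2 fold change of -0.33 (adjusted p = 1.66e-06 from limma). *Cd6* was named after its value was seen.

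*Btla* (gene number 208154, chr16:45223705-45252895) encodes an inhibitory receptor for HVEM, the product of *Tnfrsf14*. It had 4398, 4313 and 3801 normalized reads in WT and 3361, 3508 and 3634 in N275D cells. WT replicate 3 was the WT library nearest to the N275D libraries. The log2 fold change of *Btla* was -0.25 (SE 0.05, adjusted p = 0.000676 from limma) and -0.32 without that library. B cells also carry BTLA, and the values of B cell markers are given below. Their part in the level of *Btla* was not tested.

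*Tigit* (gene number 100043314, chr16:43626137-43665125) encodes a receptor for CD155 (*Pvr*) that competes with the activating receptor CD226. It rose from 500, 511 and 496 normalized reads in WT to 738, 732 and 709 in N275D cells, with little spread in either genotype. The change on the log2 scale was 0.53 (SE 0.05, 95% confidence interval 0.42 to 0.65, adjusted p = 7.39e-07 from limma). *Cd226* went the other way, with a log2 fold change of -0.20 (adjusted p = 0.0209 from limma), and *Cd96*, another receptor for CD155, was not called (0.06, adjusted p = 0.591 from limma). The ratio of *Tigit* to *Cd226*, as normalized reads per kb of exon, was 4.08, 3.83 and 4.21 in WT and 7.24, 6.77 and 6.10 in N275D libraries. It went from 4.04 ± 0.19 to 6.70 ± 0.58 (SD, n = 3 each) and is given with no test. The genotypes did not overlap in either gene and the directions were opposite, so they could not overlap in the ratio.

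**Figure D3:**
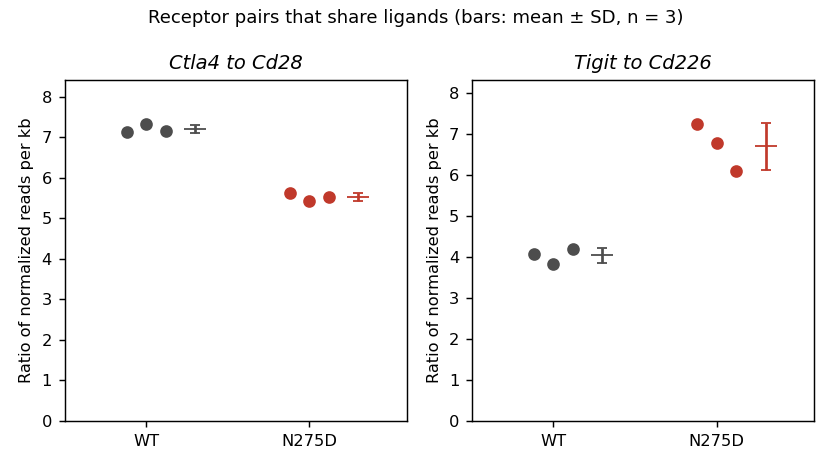
Ratio of normalized reads per kb of exon (y axis, starting at 0) for *Ctla4* to *Cd28* and *Tigit* to *Cd226* in each WT (grey) and N275D (red) library, with the mean and SD beside the points. The first ratio is lower and the second higher in every N275D library than in any WT library, which follows from the values of the single genes.

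*Lag3* (gene number 16768, chr6:124904359-124912434) encodes a CD4 relative that binds MHC class II and lies 16.1 kb from *Cd4*. It had 251, 248 and 327 normalized reads in WT and 403, 381 and 341 in N275D cells, so the nearest libraries of the genotypes were 13.6 normalized reads apart. The log2 fold change of *Lag3* was 0.45 (SE 0.10, adjusted p = 0.00122 from limma). WT replicate 3 was the high WT library, and without it the value was 0.58 (adjusted p = 1.03e-06 from limma). Its neighbour *Cd4* had a log2 fold change of -0.27.

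*Havcr2* (gene number 171285, chr11:46454931-46481255) encodes TIM-3, best known from terminally differentiated Th1 and exhausted T cells. It was near the floor of the data, with 10, 6 and 11 reads in the WT libraries and 30, 31 and 22 reads in the N275D libraries. In normalized reads these are 10.1, 6.1 and 10.8 against 29.9, 31.1 and 21.7. The WT mean of 8.98 lay below the minimum mean of 10, which the gene passed only through the N275D libraries (mean 27.6). The log2 fold change of *Havcr2* was the largest of the 10 at 1.54, with the widest error (SE 0.29, 95% confidence interval 0.93 to 2.15, adjusted p = 0.000337 from limma). With a pseudocount of 10 it was 0.99, without WT replicate 2 it was 1.30 and without WT replicate 3 it was 1.68. Per kb of exon, *Havcr2* stood at 10.1 normalized reads in N275D cells, below each of the other 9 receptors in every library, so TIM-3 transcripts remained scarce in both genotypes.

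*Cd69* (gene number 12515, chr6:129267324-129275375) had 2641, 2713 and 2384 normalized reads in WT and 2169, 2220 and 2334 in N275D cells. WT replicate 3 and N275D replicate 3 were 50.3 normalized reads apart, the nearest pair. The log2 fold change of *Cd69* was -0.20 (SE 0.05, adjusted p = 0.00309 from limma), and -0.26 without WT replicate 3. *S1pr1*, whose product CD69 removes from the cell surface, had 626 ± 24.2 normalized reads in WT and 1286 ± 24.0 in N275D cells (SD, n = 3 each) and rose by 1.04 on the log2 scale (SE 0.05, adjusted p = 1.09e-10 from limma). *Klf2*, the factor that switches on *S1pr1*, was at 17.0 normalized reads in WT and 21.3 in N275D cells and was not called (adjusted p = 0.295 from limma).

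The order of the receptors was compared per kb of exon, since longer transcripts collect more reads. In WT cells *Ctla4* was the most abundant at 5497 ± 207 normalized reads per kb (SD, n = 3), followed by *Cd5*, *Pdcd1*, *Cd69*, *Btla*, *Icos*, *Cd28*, *Tigit*, *Lag3* and *Havcr2*. No neighbours in that order overlapped in WT. In N275D cells *Ctla4* (4667 ± 178) and *Cd5* (3567 ± 74.4) still led (normalized reads per kb, SD, n = 3 each). *Pdcd1* followed them in WT at 2214 ± 67.1 normalized reads per kb. In N275D cells it stood at 1274 ± 47.9, between *Cd69* (1328 ± 49.9) and *Icos* (1229 ± 24.5), and it overlapped with both. *Icos* and *Btla* changed places, and *Btla* was above *Icos* in every WT library and below it in every N275D library. *Cd28*, *Tigit*, *Lag3* and *Havcr2* kept the last places in both genotypes. Exon length was taken over all coding transcripts of a gene, so that the use of a shorter form would raise its true level per kb.

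**Figure D4:**
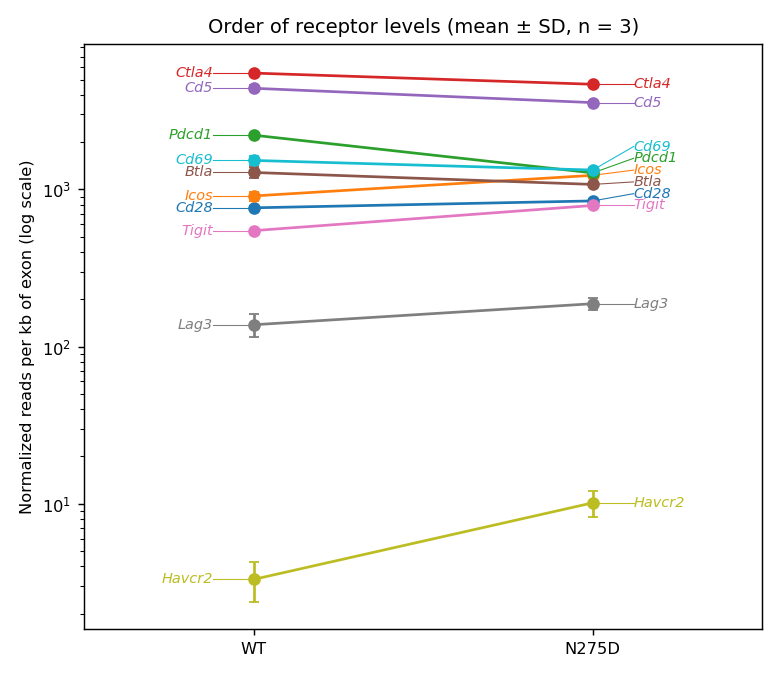
Normalized reads per kb of exon (y axis, log scale) of the 10 receptors in WT and N275D cells, as mean ± SD of 3 libraries, with a line joining the genotypes. *Pdcd1* falls into the range of *Cd69* and *Icos*, and the lines of *Icos* and *Btla* cross.

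As a share of all normalized reads in a library, the 10 together made up 0.233% to 0.240% in WT and 0.209% to 0.214% in N275D cells. The 7 inhibitory receptors summed to between 32984 and 33993 normalized reads in WT and between 26877 and 27551 in N275D libraries. These sums follow the abundant inhibitory receptors *Cd5*, *Ctla4*, *Pdcd1* and *Btla*, which fell, more than the scarce *Tigit*, *Lag3* and *Havcr2*, which rose.

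The ligands of these receptors are made mainly by antigen-presenting cells, and T cells carry some of them too. Of 15 ligands and counter-receptors listed, 14 were tested, with 5 called higher, 6 called lower and a median log2 fold change of -0.18. Both PD-1 ligands fell with their receptor, *Cd274* (PD-L1) from 1298 ± 57.3 to 1064 ± 51.5 and *Pdcd1lg2* (PD-L2) from 708 ± 5.94 to 597 ± 39.4 normalized reads (SD, n = 3 each). Their log2 fold changes were -0.29 (adjusted p = 0.000241) and -0.25 (adjusted p = 0.00231, both from limma). *Cd80*, bound by CD28 and CTLA-4, also fell (-0.28, adjusted p = 0.00286 from limma), whereas its partner *Cd86* was not called (-0.03, adjusted p = 0.863 from limma). *Tnfrsf14* fell with *Btla* (-0.17), and *Lgals9*, a ligand proposed for TIM-3, had -0.19 while *Havcr2* rose. *Icosl* was low, at 38.7 normalized reads in WT and 31.9 in N275D cells, and was not called (adjusted p = 0.266 from limma). The TIGIT ligands *Pvr* (0.14, adjusted p = 0.0260) and *Nectin2* (0.90, adjusted p = 0.00113, both from limma) rose with *Tigit*. *Nectin2* reached 42.2 normalized reads and *Ceacam1* (0.97) 43.1, so that both stayed low. *Lgals3* (0.51) and *Hmgb1* (-0.30) completed the largest changes of the list in each direction.

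Of 20 other co-signalling receptors listed, 17 were tested, with 5 higher, 9 lower and a median log2 fold change of -0.18. The ectoenzymes *Nt5e* (CD73, 1.39) and *Entpd1* (CD39, 1.26), which turn extracellular ATP into adenosine, rose most, followed by *Cd101* (0.88). *Nt5e* had 59.8 ± 8.42 normalized reads in WT and 157 ± 13.7 in N275D cells, and *Entpd1* had 35.6 ± 5.50 and 86.3 ± 8.50 (SD, n = 3 each). The largest falls were in the SLAM family receptors *Slamf6* (-0.996) and *Cd84* (-0.53) and in *Vsir* (VISTA, -0.42). *Slamf6* fell from 444 ± 1.05 to 222 ± 13.1 normalized reads (SD, n = 3 each, adjusted p = 1.03e-08 from limma).

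Inside the cell, 23 phosphatases, adaptors, kinases and factors of receptor trafficking or mRNA decay were tested, with 5 higher, 9 lower and 9 not called, and a median log2 fold change of -0.05. *Cblb*, a ubiquitin ligase that makes T cell activation depend on CD28, had 865 ± 36.3 normalized reads in WT and 1857 ± 61.9 in N275D cells (SD, n = 3 each) and rose by 1.10 on the log2 scale (SE 0.05, adjusted p = 3.25e-11 from limma). *Rc3h2* (Roquin-2), which degrades *Icos* mRNA, rose (0.48, adjusted p = 1.12e-05 from limma). Its relative *Rc3h1* was not called (adjusted p = 0.998 from limma), and *Zc3h12a* (Regnase-1), which also degrades *Icos* mRNA, fell most (-0.47, adjusted p = 3.28e-07 from limma), ahead of *Vav1* (-0.33) and *Ubash3a* (-0.31). *Ptpn11* (SHP-2, -0.28) and *Ptpn6* (SHP-1, -0.26), the phosphatases recruited by PD-1 and BTLA, fell as well. *Lrba*, which protects CTLA-4 from degradation, was not called (-0.10, adjusted p = 0.0527 from limma). *Rc3h1*, both phosphatases and *Lrba* were named after their values were seen.

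Of 16 transcription factors known to act on checkpoint receptor genes, 5 were higher and 8 lower, with a median log2 fold change of -0.37. *Nfatc1*, which drives *Pdcd1* after T cell receptor signalling, had 3393 ± 200 normalized reads in WT and 1610 ± 39.0 in N275D cells (SD, n = 3 each) and fell by 1.07 on the log2 scale (SE 0.05, adjusted p = 2.64e-11 from limma). *Nr4a1* (-0.84) and *Tbx21* (-0.83) were next. *Eomes* (0.69), *Maf* (0.52) and *Prdm1* (0.44), which have each been tied to inhibitory receptor expression, rose from low levels, with *Maf* highest of them at 253 ± 14.2 normalized reads in N275D cells (SD, n = 3). Among 12 other genes of activation and homing, which are surface markers apart from *Klf2*, 8 were higher and 2 lower, with a median of 0.42. *Tnfrsf9* (4-1BB, 1.93), *Il7r* (1.34) and *S1pr1* rose most, and *Tnfrsf4* (OX40, -0.21) and *Tfrc* (-0.16) fell. For *Tfrc* the genotypes overlapped, since WT replicate 3 with 18776 normalized reads lay among the N275D libraries (18668, 18531 and 19088). Of 15 immediate early genes of T cell receptor signalling, the pathway that also induces *Cd69*, *Cd5* and *Pdcd1*, 12 were lower and 3 higher, with a median of -0.55. *Egr3* (-1.55), *Nfkbid* (-1.05) and *Fosl1* (-0.83) fell most, and *Dusp5* (0.75), *Jun* (0.60) and *Myc* (0.17) rose. Their part in the changes of the receptors was not tested.

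**Figure D5:**
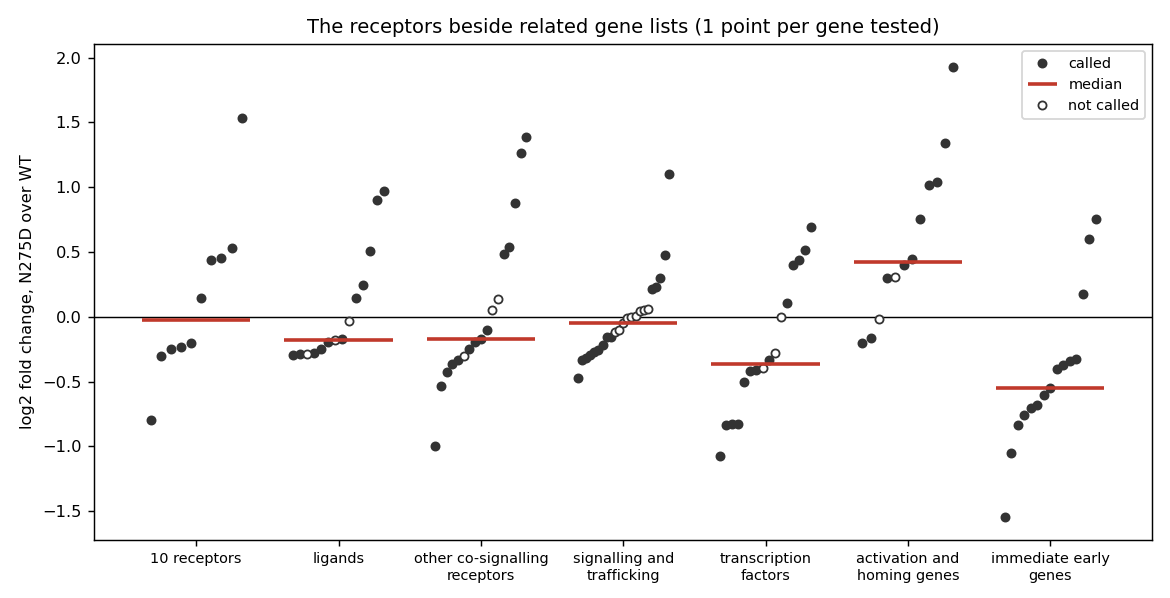
Log2 fold change, N275D over WT (y axis), of the 10 receptors and of each tested gene in 6 related lists, with filled points for genes called by limma, open points for those not called and a red line at the median. The immediate early genes and transcription factors have medians below 0, at -0.55 and -0.37, and the activation and homing genes above 0, at 0.42.

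Several of these receptors are also carried by other cells, whose markers are given beside them. Of 7 markers of regulatory T cells, which express much CTLA-4, ICOS and TIGIT, 3 were called higher and 2 lower, and their sum, mostly *Capg*, was 5175 to 5521 normalized reads in WT and 5764 to 5838 in N275D libraries. The defining factor *Foxp3* stood at 50.9 ± 9.29 and 38.2 ± 5.0 normalized reads (SD, n = 3 each) and was not called (adjusted p = 0.0755 from limma). Of 8 markers of CD8 T and natural killer cells, which can carry LAG-3, TIM-3 and TIGIT, 5 were tested, with 4 higher and 0 lower. Their sum was 259 to 290 normalized reads in WT and 378 to 427 in N275D libraries. *Cd8b1*, the most abundant of them, rose from 98.9 ± 5.69 to 148 ± 1.19 normalized reads (SD, n = 3), 0.58 on the log2 scale (adjusted p = 0.000145 from limma). *Klrd1* (0.79), *Klrk1* (0.72) and *Eomes* (0.69) were the others called higher. *Cd8a* was not called (-0.22, adjusted p = 0.401 from limma), and *Klrb1c* had 2.0 normalized reads at most. Of 10 B cell markers, 7 were tested, with 6 higher and 0 lower, and their sum was 1920 to 1926 in WT and 2637 to 2760 in N275D libraries. Without *Ebf1* and *Cd74*, which hold most of those reads, the sum of 6 markers was 163 to 173 in WT and 241 to 308 in N275D libraries, and *Ms4a1* did not exceed 9.9 in any library. Of 8 myeloid markers, 3 were tested, with 2 higher and 1 lower, and their sum, mostly *Cst3*, was 929 to 1048 in WT and 1190 to 1244 in N275D libraries. *Lyz2* and *Csf1r* were under 10 in every library. Of 6 markers of gamma delta T cells, 2 were tested, *Sox13* and *Blk*, and both were higher, with sums of 31 to 41 and 58 to 66 normalized reads. The receptor chain genes *Trdc*, *Trgc1*, *Tcrg-C1* and *Trgv2* were not among the genes reported, so their levels are unknown. The part of any of these cells in the levels of the 10 receptors was not tested.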

How the data were processed

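Gene-level RNA-seq values of 6 Th17 libraries were used, 3 per genotype as labelled. The study's methods state that the authors mapped trimmed reads with STAR (mouse build mm10) and used featureCounts to count per gene. Tool versions and the counting of shared reads are not given in the sources used here. The labels name poly-A selection and a directional kit, and the methods strand-specific DNBSEQ libraries. The deposited signal values are gene read numbers scaled by a single factor in each library, and 100% of values were whole multiples of it within 1e-06. The authors also deposited their own log2 fold changes, q-values and group averages, which were not used.

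Genes with a mean of at least 10 (11908 of 16244) were tested on log2(value + 1) with limma 3.58.1 (R 4.3.3), using a trended prior without a block. A gene was called at a Benjamini-Hochberg adjusted p under 0.05 over all genes tested. Fold changes of low genes are understated on this scale. With 3 libraries against 3, an exact two-sided permutation test of 1 gene cannot go below 0.1. The receptors and lists were chosen with earlier results of these data known. Named are all 10 receptors, the 3 largest called changes of each list in each direction, and ligands or rivals of a receptor. 1 gene that this rule names is not reported here. Positions are from RefSeq (GRCm38.p6, the build mm10), and exon lengths from GENCODE M21. Alternatives were other pseudocounts (0.1 and 10), other minimum means (above 0, or 100), TMM or quantile scaling, no trended prior, the replicate number as a block, a 2-fold minimum, and each library left out. The fit was first tested on simulated data, in which far fewer genes changed than were called here and 1 setting of spread served all genes. That test therefore does not vouch for the calls made here.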

Additional observations from a re-analysis of the deposited data

How the results depend on the processing

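Each of the 10 receptors kept its call in all 139 refits made of them, with a largest adjusted p of 0.0438 from limma, for *Cd28* without N275D replicate 3. The directions stayed as well, but only TMM or quantile scaling could have reversed them. Other pseudocounts or a library left out cannot reverse the direction of a gene whose genotypes do not overlap. The other minimum means, the prior and the block left the fold changes as they were. *Havcr2* could not be tested with a minimum mean of 100. With a 2-fold minimum, 1 receptor was called higher and 0 lower (*Havcr2* was the one called, and 5 and 5 were called at any fold change), 10 companion genes were called in place of 77, and 427 of all genes in place of 6056. With each library left out in turn, the 5 higher and 5 lower receptor calls stayed, the companion calls numbered 70 to 76 and all calls 5162 to 6396. Pairing by replicate number was looked for in what remained of each gene after its genotype mean was subtracted. There, same-numbered libraries had correlations of -0.045, 0.041 and -0.083, and 1 of 3 WT libraries correlated best with its own number. These values gave no sign of pairing, but so few libraries cannot exclude it. With the replicate number as a block, 5 receptors were called higher and 5 lower, with 76 companion genes and 5727 of all genes. The ratios of *Ctla4* to *Cd28* and *Tigit* to *Cd226* moved by less than the SD between libraries in all 20 recalculations. Those with TMM scaling could not move, and those with a pseudocount of 0.1 could hardly move at these read numbers, so they were no check. Nor were those with a library left out, since dropping 1 of 3 values shifts their mean by less than their SD. With quantile scaling, the change in log2 ratio was -0.386 for *Ctla4* to *Cd28* (main setting -0.382) and 0.734 for *Tigit* to *Cd226* (main setting 0.728). With a pseudocount of 10 the changes were -0.381 and 0.716. The planned count tests of edgeR and DESeq2 were not run. Depth limits *Havcr2*, with 27 reads in all in WT and 83 in N275D cells.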
